A study of Mus musculus with 4 samples.

Results

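Collagen chains were examined on 4 Affymetrix arrays of mouse cells. The set holds every gene whose symbol reads Col, a number, a and a number, such as Col1a1, which gave 44 of the 23185 named genes on the array. Each was read by 1 probe set, and all 44 are accounted for. By the form their proteins build, 11 are fibrillar, 9 network-forming, 9 fibril-associated (FACIT), 6 beaded-filament and 4 transmembrane chains. The other 5, Col7a1, Col15a1, Col18a1, Col26a1 and Col28a1, belong to none of these classes.

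A collagen is a triple helix of chains rich in glycine and proline. The helix may hold copies of 1 gene's product or of several, so chains of one collagen type are partners. Fibrillar collagens assemble outside the cell into the tensile fibres of connective tissue, and FACIT collagens sit on the surface of those fibres. Network collagens form sheets, among them the type IV meshwork of basement membranes on which epithelia rest. Beaded filaments of type VI link fibres to cells, and transmembrane collagens are held in the cell surface. In the lung, fibroblasts are the main makers of fibrillar collagen, while epithelial and endothelial cells contribute to basement membranes.

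The 4 populations had 1 array each and were all labelled adult mouse lung. The iPS population consisted of induced pluripotent stem cells made from club cells, the secretory cells of the airway lining. Day0 was club cells freshly isolated from lung. 3W+Dox, also called Club-iPL in the labels, was isolated club cells after 3 weeks in medium with doxycycline, a drug used to switch on inducible transgenes, and 3W+Dox+2W-Dox, called withdrawn cells below, had 2 further weeks without it. The labels name neither strain, transgene and cell sort nor a feeder layer for the cultures, and no array of club cells kept without doxycycline was analysed here.

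Values are log2 signals, and a difference of 1 is a 2-fold difference. Since each population has 1 array, nothing below has a replicate check or a p-value, and precision is limited by the number of arrays. The words higher and lower by the rule are kept for genes with signals at least 4-fold apart, the brighter of them reaching 6.67, the median over the whole table. Signals below that median are called dim. Where one of the signals is dim, a fold is the one computed from these arrays and not an exact size. Signals of different genes come from different probes and are not set against each other.

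The labels were checked against marker genes. Club cell markers were at or above the median for 3 of 9 genes in iPS cells and for 9 of 9 at Day0, 7 of 9 at 3W+Dox and 9 of 9 in withdrawn cells. Alveolar type 2 markers were at or above it for 10 of 10 genes at Day0, a cell type the label does not name, and Sftpc, their surfactant protein gene, read 13.49 there. Sftpa1 and Sftpb, further surfactant protein genes, read 13.36 and 13.55 at Day0. The defining club cell genes Scgb1a1, Scgb3a2 and Cyp2f2 read 13.52, 10.21 and 13.83 at Day0. Pluripotency markers were at or above the median for 9 of 10 genes in iPS cells and for 1 of 10 on each other array, that gene being Sox2, with 12.07 in iPS cells and 10.65 at Day0. Pou5f1, which encodes Oct4, read 8.87 in iPS cells and 6.20 at Day0, and Nanog 12.87 and 6.27. The marker that was dim in iPS cells was Dppa5a, with 5.30.

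The first comparison sets club cells after 3 weeks with doxycycline against fresh club cells. Of 44 chains, 16 were higher in 3W+Dox than in Day0 cells, which is 36.4%, and 1 was lower, which is 2.27%. On the whole array, 4.31% of named genes were higher and 2.88% lower by the same rule. The median difference was 0.55 over the 44 chains and -0.09 over all named genes. The 27 chains that were neither higher nor lower differed by -1.66, for Col4a6, to 1.24, for Col8a2. Fibrillar chains had the largest class median, 3.44, followed by beaded-filament chains with 2.15 and network chains with 1.24. Medians were -0.09 for FACIT chains, -0.44 for transmembrane chains and 0.27 for the chains outside the classes.

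**Figure D1:**
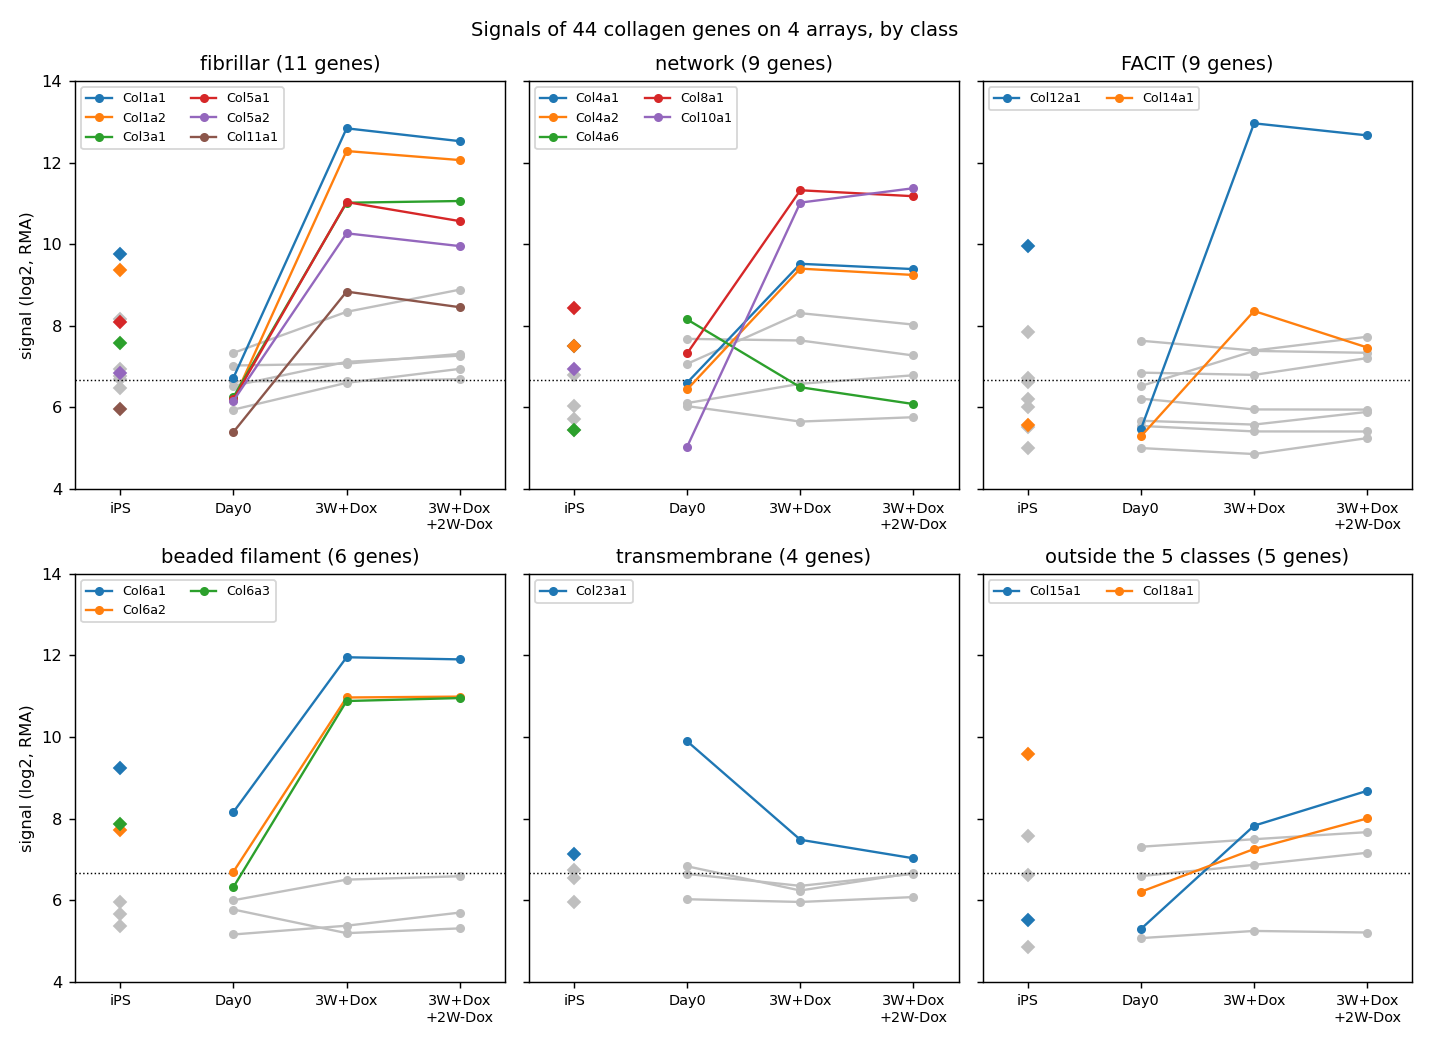
Signals of the 44 collagen genes (log2, vertical axis) on the iPS array (diamonds) and on the Day0, 3W+Dox and 3W+Dox+2W-Dox arrays (joined circles), 1 panel per class. Genes counted as higher or lower in any of 6 pairwise comparisons are coloured and the other 25 are grey; the dotted line is the table's median, 6.67. Among coloured genes, Col4a6 and Col23a1 run down after Day0, and Col18a1 stands highest on the iPS array.

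Fibroblast markers moved with the same array. Of 23 such genes, none of them a collagen, 22 were higher in 3W+Dox than in Day0 cells and 0 lower, with a median difference of 5.00. Their summed linear signal was 40733 in iPS cells, 4050 at Day0, 100250 at 3W+Dox and 104474 in withdrawn cells. Pdgfra, a growth factor receptor of mesenchymal cells, read 8.73 in iPS cells and 5.64, 10.53 and 10.87 at Day0, at 3W+Dox and in withdrawn cells. Its relative Pdgfrb read 8.66, and 6.44, 11.78 and 11.94 in the same order, and the surface protein gene Thy1 read 9.73, and 5.57, 11.55 and 11.87. At Day0 8 of the 23 markers were at or above the median, and in iPS cells 19. The part of fibroblasts in the collagen differences was not tested. These bulk samples do not show which cells made the marker RNA, and club-derived cells may be among them. Nor can more cells of a type be told apart from more RNA per cell. Leukocyte markers were higher at 3W+Dox for 7 of 8 measured genes, with summed linear signals of 10454 at 3W+Dox and 987 at Day0. Ptprc, the pan-leukocyte antigen, read 7.44 at 3W+Dox and 4.70 at Day0, Cd68 read 11.69 and 8.86, and the macrophage receptor gene Adgre1 read 9.78 and 5.72.

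**Figure D2:**
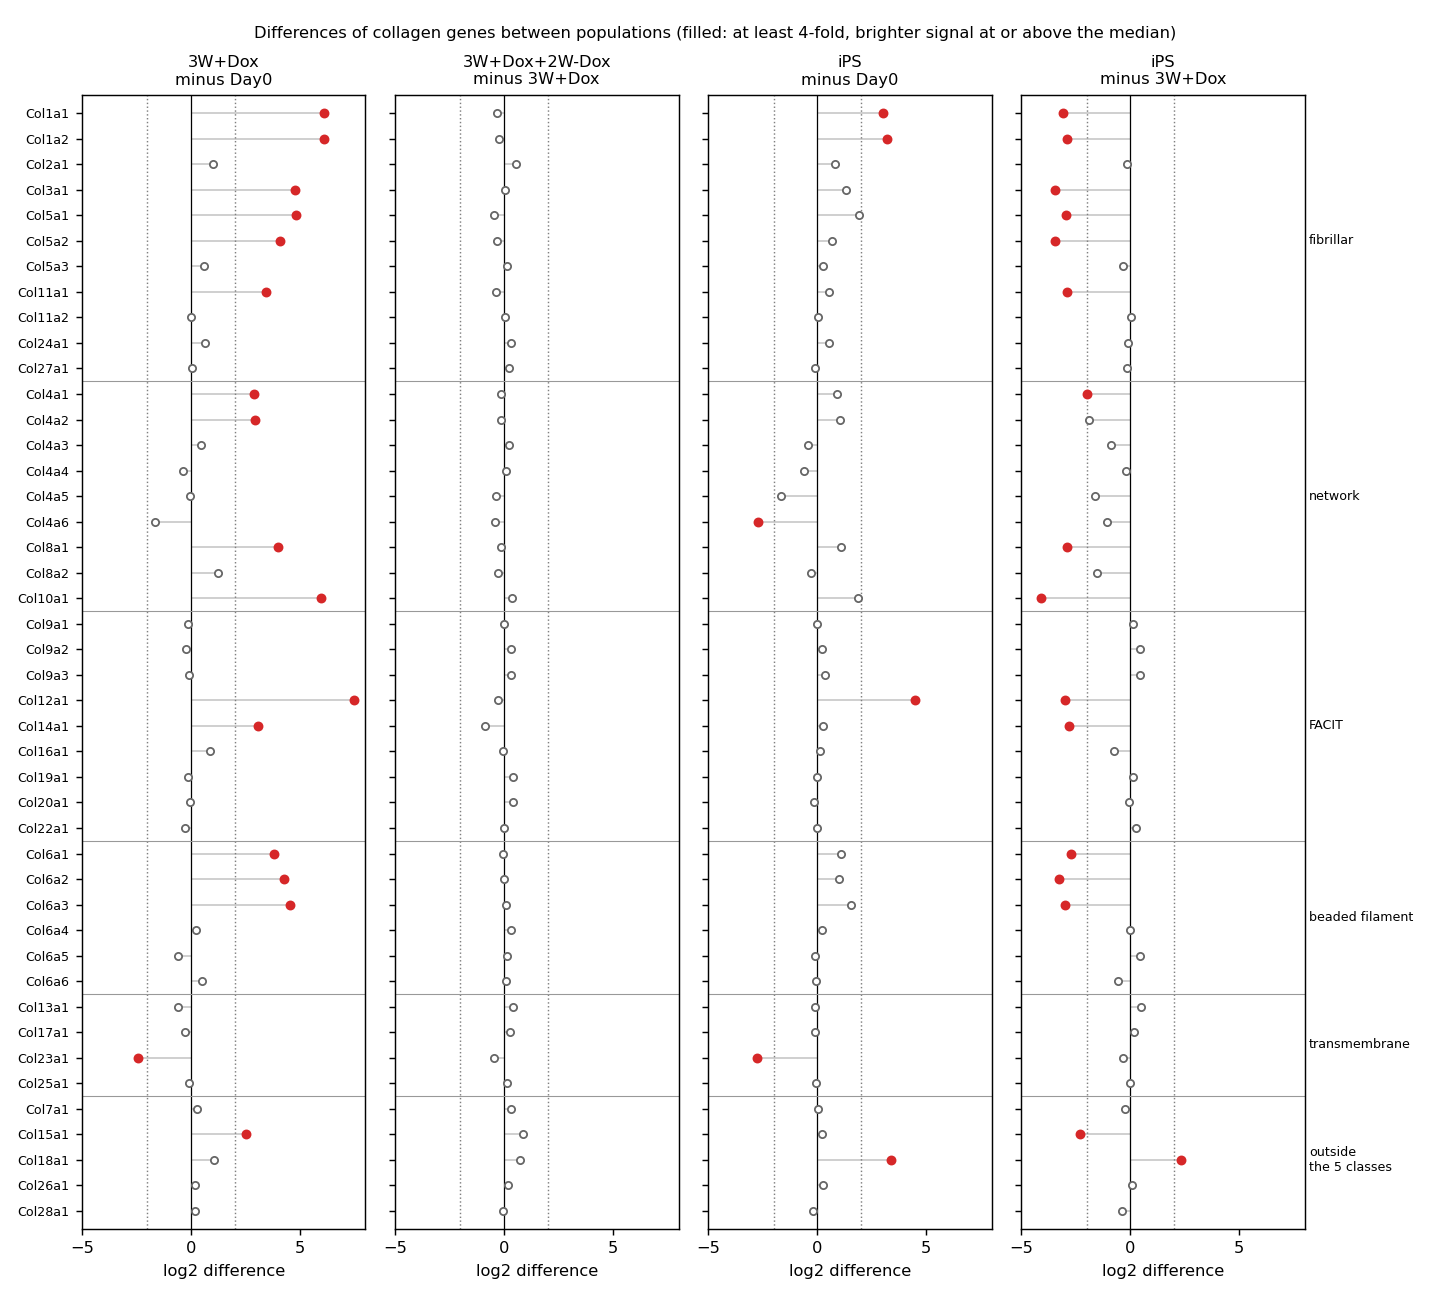
Log2 differences (horizontal axes) of the 44 collagen genes (rows, by class) in 4 comparisons; filled points are at least 4-fold apart with the brighter signal at or above the median, open points are not, and dotted lines mark 4-fold. The 3W+Dox minus Day0 column holds 16 filled points to the right and 1 to the left, the withdrawal column holds 0, and iPS cells lie mostly left of 0 against 3W+Dox.

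Of the 11 fibrillar chains, 6 were higher in 3W+Dox than in Day0 cells and 0 were lower. Type I collagen, the chief protein of bone, tendon and scar, is built from Col1a1 and Col1a2. Col1a1 (Entrez gene 12842) read 9.76 in iPS cells and 6.73 at Day0, 12.84 at 3W+Dox and 12.53 in withdrawn cells. Col1a2 (Entrez gene 12843) read 9.36 in iPS cells and 6.18 at Day0, 12.28 at 3W+Dox and 12.06 in withdrawn cells. Both chains were low at Day0 and bright in both cultures that had received doxycycline, with iPS cells in between. The computed folds at 3W+Dox against Day0 were 69.1 for Col1a1 and 68.8 for Col1a2, the second from a dim Day0 signal.

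The promoter of Col1a2 is shown because the gene is one of the members furthest above Day0 and has an entry in the RefSeq promoter table, where Col1a1 has none. The window runs from 250 bases before the annotated start to 50 bases from it, at chr6:4505368-4505667, plus strand, in GRCm38.p6. Capitals mark matches to the CCAAT box (CCAAT) and the GC box (GGGCGG), read on both strands.
Col1a2: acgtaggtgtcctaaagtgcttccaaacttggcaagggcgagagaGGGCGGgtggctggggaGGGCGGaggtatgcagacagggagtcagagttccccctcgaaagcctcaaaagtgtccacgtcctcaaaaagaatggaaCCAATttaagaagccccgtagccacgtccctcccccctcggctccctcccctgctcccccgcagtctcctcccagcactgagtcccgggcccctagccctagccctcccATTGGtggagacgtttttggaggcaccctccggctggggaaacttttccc
With the start base as 0, GC boxes lie at -205 to -200 and at -188 to -183, and CCAAT boxes at -109 to -105 and, on the minus strand, at 0 to 4. The arrays did not measure binding at these letters.

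Type III collagen, a homotrimer that accompanies type I in vessels and lung, is made from Col3a1 (Entrez gene 12825). It read 7.58 in iPS cells and 6.26 at Day0, 11.02 at 3W+Dox and 11.06 in withdrawn cells, a 27.1-fold higher signal in 3W+Dox than in Day0 cells. Type V collagen is a minor component that sets the width of type I fibres. Its chain Col5a1 (Entrez gene 12831) read 8.10 in iPS cells and 6.20 at Day0, 11.03 at 3W+Dox and 10.57 in withdrawn cells. Col5a2 (Entrez gene 12832) read 6.83 in iPS cells and 6.17 at Day0, 10.27 at 3W+Dox and 9.95 in withdrawn cells. These chains were 28.6-fold and 17.2-fold higher in 3W+Dox than in Day0 cells. The third type V chain, Col5a3, differed far less, with 6.78 in iPS cells and 6.53 at Day0, 7.12 at 3W+Dox and 7.27 in withdrawn cells.

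Type XI collagen starts fibre growth and is best known from cartilage, where its chains join a product of Col2a1, the type II collagen gene. Col11a1 (Entrez gene 12814) read 5.96 in iPS cells and 5.40 at Day0, 8.84 at 3W+Dox and 8.46 in withdrawn cells, 10.8-fold higher in 3W+Dox than in Day0 cells. Its partner Col11a2 was flat, with 6.69 in iPS cells and 6.64 at Day0, 6.64 at 3W+Dox and 6.69 in withdrawn cells. Within type XI, then, 1 chain differed by over 8-fold and the other by under 0.1 log2 units. Col2a1 (Entrez gene 12824) read 8.17 in iPS cells and 7.34 at Day0, 8.34 at 3W+Dox and 8.89 in withdrawn cells, short of 4-fold in each comparison. The remaining fibrillar chains, Col24a1 of bone and Col27a1 of cartilage, lay between 5.95 and 7.31 on the 4 arrays.

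**Figure D3:**
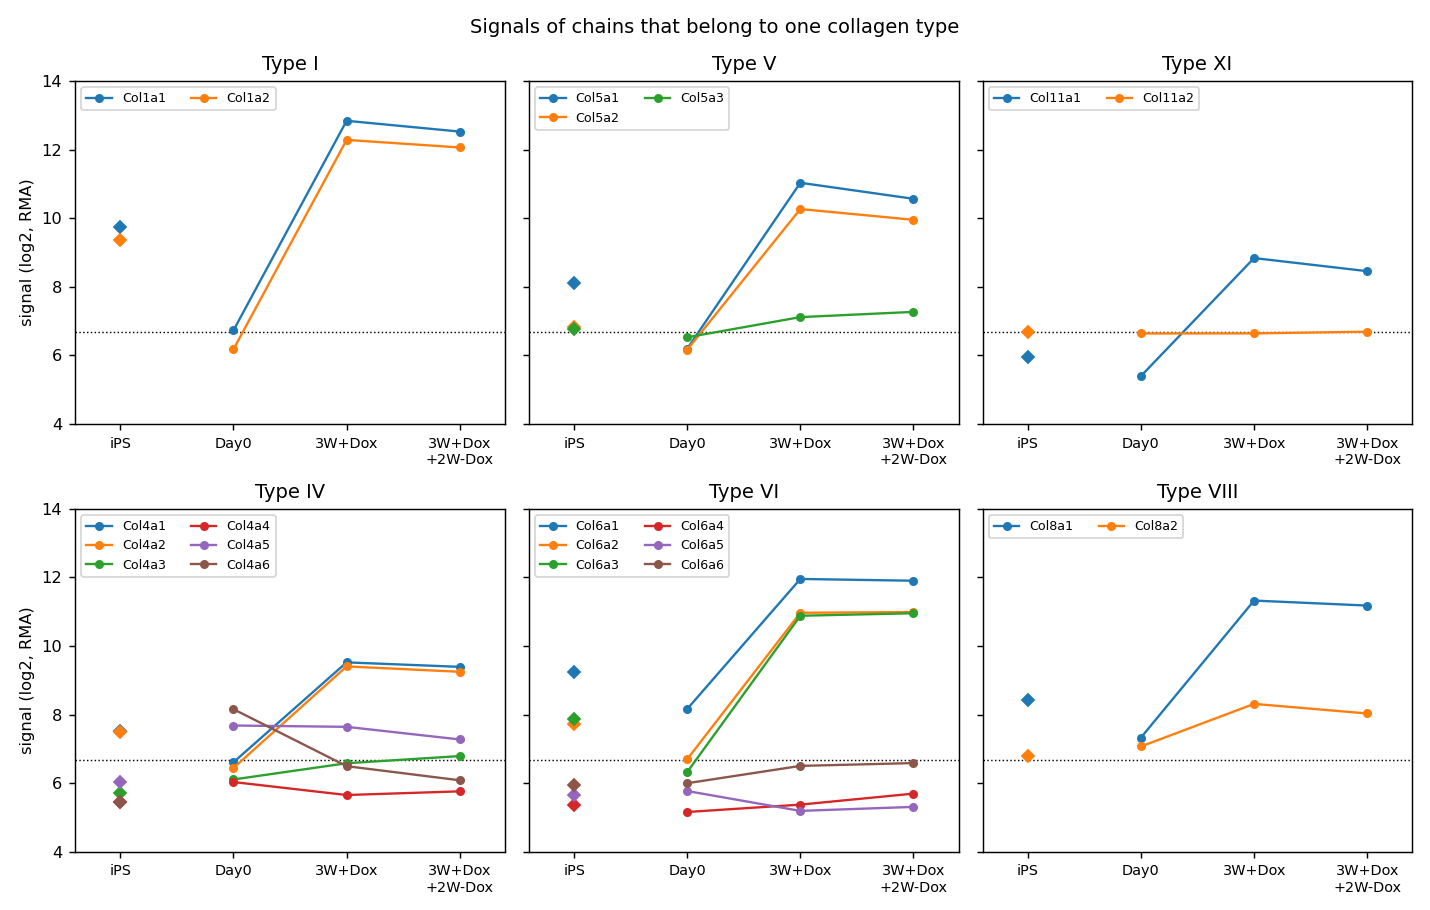
Signals (log2, vertical axis) of partner chains of 6 collagen types on the iPS array (diamonds) and on the Day0, 3W+Dox and 3W+Dox+2W-Dox arrays (joined circles); the dotted line is the median of all values, 6.67. The pairs Col1a1 with Col1a2 and Col4a1 with Col4a2 run side by side, while Col11a2, Col5a3 and Col6a4 to Col6a6 stay near their Day0 signals, unlike their partners.

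Network-forming chains include the type IV chains of basement membranes and the short chains of types VIII and X. Of 9 chains, 4 were higher in 3W+Dox than in Day0 cells and 0 lower. Type IV collagen occurs in 3 kinds of trimer. That of Col4a1 and Col4a2 is found in nearly all basement membranes, that of Col4a3, Col4a4 and Col4a5 in kidney glomeruli and lung alveoli, and that of Col4a5 and Col4a6 in skin, smooth muscle and airway. Col4a1 (Entrez gene 12826) read 7.52 in iPS cells and 6.61 at Day0, 9.52 at 3W+Dox and 9.39 in withdrawn cells. Col4a2 (Entrez gene 12827) read 7.50 in iPS cells and 6.44 at Day0, 9.40 at 3W+Dox and 9.25 in withdrawn cells. These partners were 7.53-fold and 7.78-fold higher in 3W+Dox than in Day0 cells, and their differences lay at most 0.15 log2 units apart in all 6 comparisons.

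Col4a6 ran the other way. It (Entrez gene 94216) read 5.44 in iPS cells and 8.16 at Day0, 6.50 at 3W+Dox and 6.08 in withdrawn cells. The signal was highest in fresh club cells, dim on the other 3 arrays, and 3.16-fold lower in 3W+Dox than in Day0 cells, which is short of the 4-fold rule. It was 4.21-fold lower in withdrawn cells and 6.56-fold lower in iPS cells than at Day0, both past the rule. Col4a5 (Entrez gene 12830) read 6.04 in iPS cells and 7.68 at Day0, 7.64 at 3W+Dox and 7.27 in withdrawn cells, so it was lowest in iPS cells and near its Day0 signal at 3W+Dox. The remaining type IV chains were dim, Col4a4 on all 4 arrays and Col4a3 on 3 of 4. Col4a3 read 5.71 in iPS cells and 6.11 at Day0, 6.58 at 3W+Dox and 6.79 in withdrawn cells, and Col4a4 read 5.45, and 6.03, 5.65 and 5.76 in the same order.

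Col4a1 and Col4a2 lie head to head on chromosome 8, and their promoter windows are shown because these chains moved by nearly the same amount. The annotated starts are 21 bases apart on opposite strands, and each lies downstream of the other. The annotated transcripts thus overlap at their 5′ ends, with no gap between the starts. The RefSeq windows are chr8:11312777-11313076, minus strand, for Col4a1 and chr8:11312555-11312854, plus strand, for Col4a2, in GRCm38.p6. Each is written 5′ to 3′ on its own strand, and capitals mark the 78 bases that both windows hold, as reverse complements of each other.
Col4a1: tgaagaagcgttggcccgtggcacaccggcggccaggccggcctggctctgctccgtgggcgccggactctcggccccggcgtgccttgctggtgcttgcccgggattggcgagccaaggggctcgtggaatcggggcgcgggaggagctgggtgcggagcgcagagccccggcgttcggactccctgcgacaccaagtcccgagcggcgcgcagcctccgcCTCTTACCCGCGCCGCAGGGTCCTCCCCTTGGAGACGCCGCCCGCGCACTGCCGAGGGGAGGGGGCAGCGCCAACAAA
Col4a2: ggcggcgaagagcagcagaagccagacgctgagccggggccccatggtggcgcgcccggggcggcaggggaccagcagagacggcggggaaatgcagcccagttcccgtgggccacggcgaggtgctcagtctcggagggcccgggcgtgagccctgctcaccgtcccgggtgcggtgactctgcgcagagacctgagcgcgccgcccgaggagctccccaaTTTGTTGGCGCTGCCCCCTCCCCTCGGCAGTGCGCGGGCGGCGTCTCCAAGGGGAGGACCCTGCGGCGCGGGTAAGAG
The Col4a1 window holds a CCAAT box at -145 to -141 and a GC box at 9 to 14. Both read on the strand opposite to the written one, which is the plus strand of the chromosome. The Col4a2 window holds a CCAAT box at -32 to -28 and GC boxes at -192 to -187, at -48 to -43 on the minus strand, and at 7 to 12. The Col4a1 GC box and the Col4a2 box at 7 to 12 are the same bases of the shared stretch, which the windows write from opposite strands.

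Among the short-chain network collagens, Col8a1 and Col10a1 were higher at 3W+Dox. Type VIII collagen forms hexagonal lattices under endothelium and in the cornea. Col8a1 (Entrez gene 12837) read 8.44 in iPS cells and 7.33 at Day0, 11.32 at 3W+Dox and 11.18 in withdrawn cells, 15.9-fold higher in 3W+Dox than in Day0 cells. Its partner Col8a2 (Entrez gene 329941) read 6.80 in iPS cells and 7.07 at Day0, 8.31 at 3W+Dox and 8.03 in withdrawn cells, a difference of 1.24 at 3W+Dox that is short of 4-fold.

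Col10a1 (Entrez gene 12813) encodes type X collagen, a product of hypertrophic chondrocytes, the enlarged cells of growth plate cartilage. It read 6.93 in iPS cells and 5.04 at Day0, 11.02 at 3W+Dox and 11.37 in withdrawn cells. The gene was dim at Day0 and bright in both cultures that had received doxycycline, 63.1-fold higher at 3W+Dox and 80.5-fold higher in withdrawn cells than at Day0. In iPS cells it was 17.0-fold lower than at 3W+Dox, the furthest apart of the 44 chains in that comparison.

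Cartilage genes were set beside Col10a1. Of 10 cartilage markers, 2 were higher in 3W+Dox than in Day0 cells and 0 lower, with a median difference of -0.14 and summed linear signals of 1768 at 3W+Dox and 1235 at Day0. Acan, the large cartilage proteoglycan, read 6.36 at 3W+Dox and 5.59 at Day0, both dim. Sox9, a chondrocyte transcription factor also made in lung epithelium, read 9.47 and 7.18, and Sox5, its partner factor, read 6.85 and 7.72. The other higher marker was Comp, a cartilage matrix protein gene also made in tendon, which read 6.03 in iPS cells and 5.98 at Day0, 8.53 at 3W+Dox and 8.55 in withdrawn cells. Hapln1, the link protein gene, was dim at 3W+Dox with 6.61 and reached the rule in withdrawn cells, with 7.41 there and 4.91 at Day0. Type IX collagen, which coats type II fibres in cartilage, showed no 4-fold difference. Its chains Col9a1 and Col9a3 were dim on all 4 arrays, and Col9a2 lay between 7.39 and 7.84.

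The promoter window of Col10a1, at chr10:34389731-34390030, plus strand, in GRCm38.p6, is shown because of the size of this chain's difference from Day0. Capitals mark its single motif match, a TATA box (TATAAA) at -32 to -27.
Col10a1: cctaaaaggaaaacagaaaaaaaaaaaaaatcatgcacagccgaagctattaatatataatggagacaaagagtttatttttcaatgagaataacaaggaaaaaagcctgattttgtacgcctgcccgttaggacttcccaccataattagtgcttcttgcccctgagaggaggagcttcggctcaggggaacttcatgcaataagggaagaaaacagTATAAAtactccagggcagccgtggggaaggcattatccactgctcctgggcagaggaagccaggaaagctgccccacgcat

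FACIT collagens held the chain furthest above Day0. Of 9 chains, 2 were higher in 3W+Dox than in Day0 cells and 0 lower. Col12a1 (Entrez gene 12816), which binds type I fibres in dense connective tissue, read 9.96 in iPS cells and 5.47 at Day0, 12.96 at 3W+Dox and 12.67 in withdrawn cells. It was dim at Day0 and had the largest difference of all 44 chains at 3W+Dox, a computed 180-fold. It was also the chain furthest above Day0 in iPS cells, by 22.5-fold. Col14a1 (Entrez gene 12818), a relative that binds the same fibres, read 5.56 in iPS cells and 5.29 at Day0, 8.36 at 3W+Dox and 7.47 in withdrawn cells. Unlike Col12a1 it was dim in iPS cells, and its difference of -0.89 after withdrawal was the furthest below 0 among the 44 chains, though under 2-fold. The other 7 FACIT chains were Col9a1, Col9a2, Col9a3, Col16a1, Col19a1, Col20a1 and Col22a1. They lay between 4.86 and 7.84, and each had a spread of at most 0.86 over the 4 arrays.

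Beaded-filament chains fell into 2 sets of 3. Col6a1, Col6a2 and Col6a3 build the classical type VI collagen, while Col6a4, Col6a5 and Col6a6 are later-found chains that resemble Col6a3. Col6a1 (Entrez gene 12833) read 9.24 in iPS cells and 8.16 at Day0, 11.95 at 3W+Dox and 11.90 in withdrawn cells. Col6a2 (Entrez gene 12834) read 7.71 in iPS cells and 6.70 at Day0, 10.97 at 3W+Dox and 10.99 in withdrawn cells. Col6a3 (Entrez gene 12835) read 7.88 in iPS cells and 6.32 at Day0, 10.88 at 3W+Dox and 10.95 in withdrawn cells. The classical chains were thus 13.8-fold, 19.3-fold and 23.5-fold higher in 3W+Dox than in Day0 cells and moved by at most 0.07 log2 units after withdrawal. Col6a4, Col6a5 and Col6a6 were dim on all 4 arrays, between 5.16 and 6.58.

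Transmembrane collagens held the only chain that was lower by the rule at 3W+Dox. Col23a1 (Entrez gene 237759), a collagen of the cell surface, read 7.14 in iPS cells and 9.89 at Day0, 7.48 at 3W+Dox and 7.03 in withdrawn cells. It was bright in fresh club cells and was much closer to the table's median on every other array. Its signal was 5.33-fold lower at 3W+Dox, 7.30-fold lower in withdrawn cells and 6.76-fold lower in iPS cells than at Day0. Club cell markers were set beside Col23a1. Of 9 such genes, 5 were lower in 3W+Dox than in Day0 cells and 9 lower in iPS cells. At 3W+Dox against Day0, Scgb3a2 differed by -3.96, while Scgb1a1 and Cyp2f2 differed by -0.89 and -1.39, short of the rule. The 9 genes had summed linear signals of 873 in iPS cells and 72428 at Day0, 29482 at 3W+Dox and 34910 in withdrawn cells. After withdrawal 2 of them were higher than at 3W+Dox and 1 lower, while Col23a1 differed by -0.45 and Col4a6 by -0.41. Alveolar type 2 markers, bright at Day0 too, had 0 of 10 genes higher or lower at 3W+Dox and 1 higher and 8 lower in iPS cells than at Day0. Their summed linear signals were 3887 in iPS cells and 56618 at Day0, 34495 at 3W+Dox and 41952 in withdrawn cells. The part of either cell type in the Col23a1 and Col4a6 differences was not tested.

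The promoter window of Col23a1, at chr11:51289670-51289969, plus strand, in GRCm38.p6, is shown because this was the single chain lower at 3W+Dox. Capitals mark its single motif match, a minus-strand GC box at -11 to -6.
Col23a1: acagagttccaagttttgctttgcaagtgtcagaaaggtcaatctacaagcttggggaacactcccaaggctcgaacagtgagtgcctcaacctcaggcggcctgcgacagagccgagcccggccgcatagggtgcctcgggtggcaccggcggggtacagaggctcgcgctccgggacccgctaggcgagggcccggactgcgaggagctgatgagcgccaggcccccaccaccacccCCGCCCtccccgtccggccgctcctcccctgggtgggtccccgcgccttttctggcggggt

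The remaining transmembrane chains, Col13a1, Col17a1 and Col25a1, lay between 5.96 and 6.83, with spreads over the 4 arrays of 0.12 to 0.59. Col17a1, the hemidesmosome collagen that anchors basal epithelial cells, was dim on all 4 arrays. Of 9 measured markers of basal cells and hemidesmosomes, 3 were higher in 3W+Dox than in Day0 cells and 0 lower. The 3 higher genes were Lama3 and Lamb3, which encode laminin chains beneath hemidesmosomes, and Itga6, an integrin chain of hemidesmosomes. Lama3 read 9.98 at 3W+Dox and 6.47 at Day0, Lamb3 read 10.28 and 8.25, and Itga6 read 11.50 and 9.33. The basal cell keratins Krt5 and Krt14 read 5.93 and 6.72 at 3W+Dox and 6.20 and 5.77 at Day0, and the basal factor Trp63 read 6.36 and 6.10. Col7a1, which forms the anchoring fibrils beneath such cells, lay between 6.59 and 7.16 on the 4 arrays.

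Col15a1 and Col18a1 are related collagens of basement membranes and carry sugar side chains. Col15a1 (Entrez gene 12819) read 5.50 in iPS cells and 5.29 at Day0, 7.82 at 3W+Dox and 8.68 in withdrawn cells. It was 5.78-fold higher at 3W+Dox and 10.5-fold higher in withdrawn cells than at Day0, and dim in iPS cells. Col18a1 (Entrez gene 12822), whose product releases endostatin, read 9.59 in iPS cells and 6.20 at Day0, 7.25 at 3W+Dox and 8.0 in withdrawn cells. Among the 44 chains it was the only one that was higher by the rule in iPS cells than at 3W+Dox, by 5.04-fold, and it was 10.4-fold higher in iPS cells than at Day0. Col26a1 and Col28a1 completed the set. Col26a1 lay between 7.31 and 7.67, and Col28a1 between 4.86 and 5.24.

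Endothelial and extraembryonic endoderm cells also make basement membrane collagens. Of 10 endothelial markers, 1 was higher and 1 lower in iPS cells than at Day0, with summed linear signals of 1441 in iPS cells and 3505, 1120 and 1079 at Day0, at 3W+Dox and in withdrawn cells. The 1 higher marker was Pecam1, an adhesion molecule also made by pluripotent cells, with 9.22 in iPS cells and 5.50 at Day0. Kdr, a receptor that was bright at Day0, read 6.04 in iPS cells and 11.57 at Day0. It was the only 1 of the 10 at or above the median at Day0, while 5 of 10 were in iPS cells. The endothelial cadherin gene Cdh5 read 6.80 in iPS cells and 6.33 at Day0. Of 10 extraembryonic endoderm markers, 4 were higher and 2 lower in iPS cells than at Day0, with summed linear signals of 3729 in iPS cells and 3791 at Day0. The 2 lower genes, Gata6 and Foxa2, were the only ones of the 10 at or above the median at Day0. In iPS cells 9 of 10 were. Foxa2 read 6.93 in iPS cells and 10.67 at Day0. The defining endoderm factors Sox17, Gata4 and Gata6 read 5.81, 7.44 and 7.59 in iPS cells and 5.60, 6.21 and 10.65 at Day0. The 4 higher genes were Lama1 and Lamb1, which encode laminin chains, Dab2, an endocytic adaptor, and Thbd, which encodes thrombomodulin. Lama1 read 9.08 in iPS cells and 5.68 at Day0, and like Col18a1 it was also higher in iPS cells than at 3W+Dox, by 2.50. Lamb1 read 9.91 in iPS cells and 6.24 at Day0, Dab2 read 9.92 and 5.94, and Thbd read 8.65 and 6.13. In 3W+Dox cells, too, these 3 stood above Day0 by the rule. The part of either cell type in the Col18a1 difference was not tested.

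**Figure D4:**
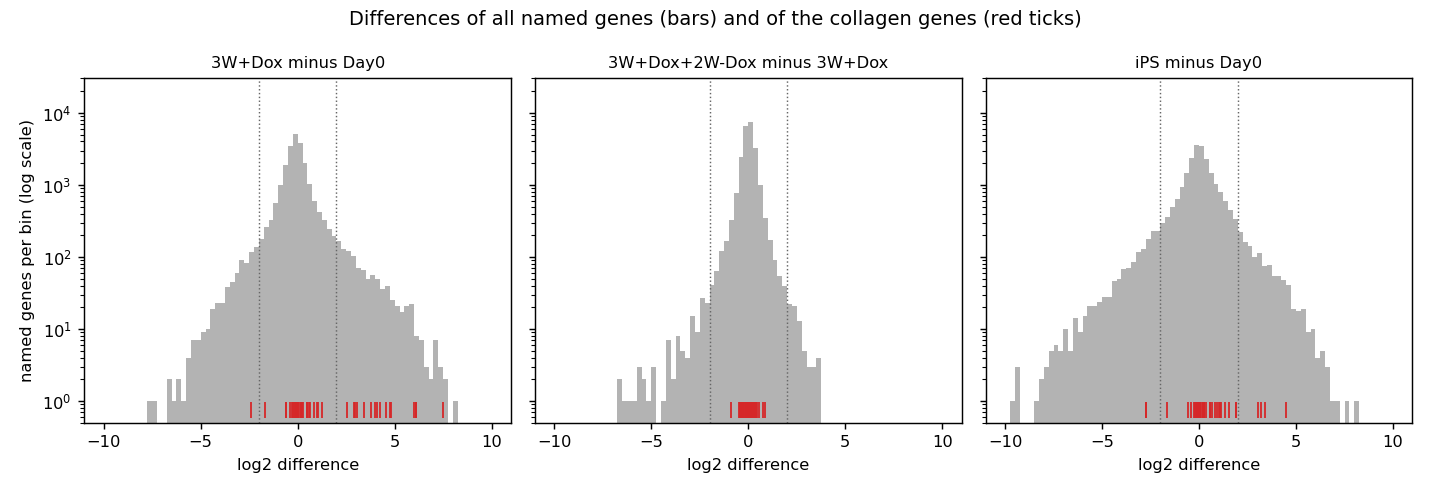
Distribution of log2 differences (horizontal axes, bins of 0.25) of all 23185 named genes (grey bars, number of genes on a log axis) and of the 44 collagen genes (red ticks) in 3 comparisons; dotted lines mark 4-fold. Collagen ticks reach 7.49 in 3W+Dox minus Day0 and stay between -0.89 and 0.85 after withdrawal.

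Withdrawn cells were next set against 3W+Dox cells. They differ both in the removal of doxycycline and in 2 more weeks of culture, which cannot be told apart here. No chain reached a 2-fold difference in either direction, and the differences ran from -0.89 for Col14a1 to 0.85 for Col15a1. On the whole array, 0.302% of named genes were higher and 0.47% lower at 4-fold, and 1.45% and 1.88% at 2-fold, so a count of 0 among 44 genes is close to what the whole array gives. The median difference was 0.06 over the 44 chains and 0.03 over all named genes. Class medians ran from -0.15 for network chains to 0.30 for chains outside the classes. Fibroblast markers had 0 of 23 genes higher and 0 lower in the same comparison, with a median of 0.16.

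Set against Day0 itself, withdrawn cells had 16 of 44 chains higher, which is 36.4%, and 2 lower, which is 4.55%. Across named genes as a whole, 4.05% were higher and 1.85% lower. The 2 lower chains were Col4a6 and Col23a1. This comparison shares the Day0 array with that of 3W+Dox and Day0, so the 2 counts are not independent. The largest differences were those of Col12a1, 147-fold, Col10a1, 80.5-fold, Col1a2, 59.0-fold, and Col1a1, 55.5-fold. The median difference was 0.71 over the 44 chains and -0.08 over all named genes.

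The comparison of iPS cells with Day0 asks how the collagen genes stand in iPS cells made from club cells. Of 44 chains, 4 were higher and 2 lower, which is 9.09% and 4.55%. Across named genes as a whole, 4.89% were higher and 5.9% lower. The 4 higher chains were Col12a1, Col18a1, Col1a2 by 9.07-fold and Col1a1 by 8.14-fold, and the 2 lower chains were Col4a6 and Col23a1. At 2-fold, 12 chains were higher and 3 lower, against 13.1% and 12.4% of all named genes. The median difference was 0.21 over the 44 chains and 0.00 over all named genes. Fibroblast markers were higher in iPS cells than at Day0 for 16 of 23 genes and lower for 0, with a median of 3.09, and their part in the Col1a1, Col1a2 and Col12a1 differences was not tested.

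Against 3W+Dox, iPS cells had 15 of 44 chains lower, which is 34.1%, and 1 higher, which is 2.27%. Across named genes as a whole, 5.16% were lower and 3.57% higher. The median difference was -0.47 over the 44 chains and 0.06 over all named genes. By class, 6 of 11 fibrillar, 3 of 9 network, 2 of 9 FACIT and 3 of 6 beaded-filament chains were lower, with 0 of 4 transmembrane chains. The remaining lower chain was Col15a1, by 4.99-fold. After Col10a1 the largest gaps were those of Col3a1, 10.8-fold, Col5a2, 10.8-fold, and Col6a2, 9.53-fold. Col4a1 just passed the rule at 4.01-fold and its partner Col4a2 just missed it at 3.73-fold, and the Col4a1 call was lost under both other scalings, at -1.93 and -1.95 log2 units. Fibroblast markers were lower for 9 of 23 genes and leukocyte markers for 6 of 8, and their part was not tested. Against withdrawn cells, iPS cells had 13 chains lower and 0 higher, with 5.05% lower and 3.83% higher over all named genes.

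Genes that make, process and sense collagen were set beside the chains. Inside the cell, prolyl and lysyl hydroxylases and chaperones prepare the chains for folding. Of 23 measured folding and modification genes, 9 were higher in 3W+Dox than in Day0 cells and 0 lower, with a median difference of 1.65. The 5 furthest apart were the lysyl hydroxylase Plod2 by 5.30, the prolyl hydroxylase subunit P4ha3 by 5.09, P3h3, of the prolyl hydroxylase family that acts on another carbon, by 4.40, and the prolyl isomerases Fkbp7 by 3.59 and Fkbp14 by 2.65. None of the 23 was higher or lower after withdrawal, and in iPS cells 1, Plod2, was higher than at Day0 and 1, P3h2, lower.

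Outside the cell, proteases trim procollagen and lysyl oxidases cross-link the fibres. Of 16 measured genes of these steps, 8 were higher in 3W+Dox than in Day0 cells and 0 lower, with a median of 1.98. The lysyl oxidases Lox, Loxl2, Loxl1 and Loxl3 were higher by 7.48, 6.16, 5.35 and 4.34. Pcolce2, which speeds the trimming of procollagen, was higher by 4.15 and was the single gene of this list that was lower after withdrawal, with 7.47 in withdrawn cells and 10.45 at 3W+Dox. In iPS cells it read 10.13 and at Day0 6.30. Compared with Day0, 6 of the 16 genes were higher in iPS cells and 0 lower.

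Cells sense collagen through integrins, discoidin domain receptors and endocytic receptors. Of 14 receptor genes, 7 were higher in 3W+Dox than in Day0 cells and 0 lower, with a median of 1.96. Itga2, a chain of an epithelial and platelet collagen receptor, was higher by 5.38, Itga11, its fibroblast relative, by 5.07, Ddr2, a receptor kinase for fibrillar collagen, by 4.60, and the mannose receptor family members Mrc1 and Mrc2 by 4.05 and 3.91. Itga2 was the single receptor gene that was lower after withdrawal, with 9.20 in withdrawn cells and 11.36 at 3W+Dox, while Itga11 read 11.35 and 11.34. In iPS cells 1 receptor gene, Itga11, was higher than at Day0 and 1, Adgrg1, lower.

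**Figure D5:**
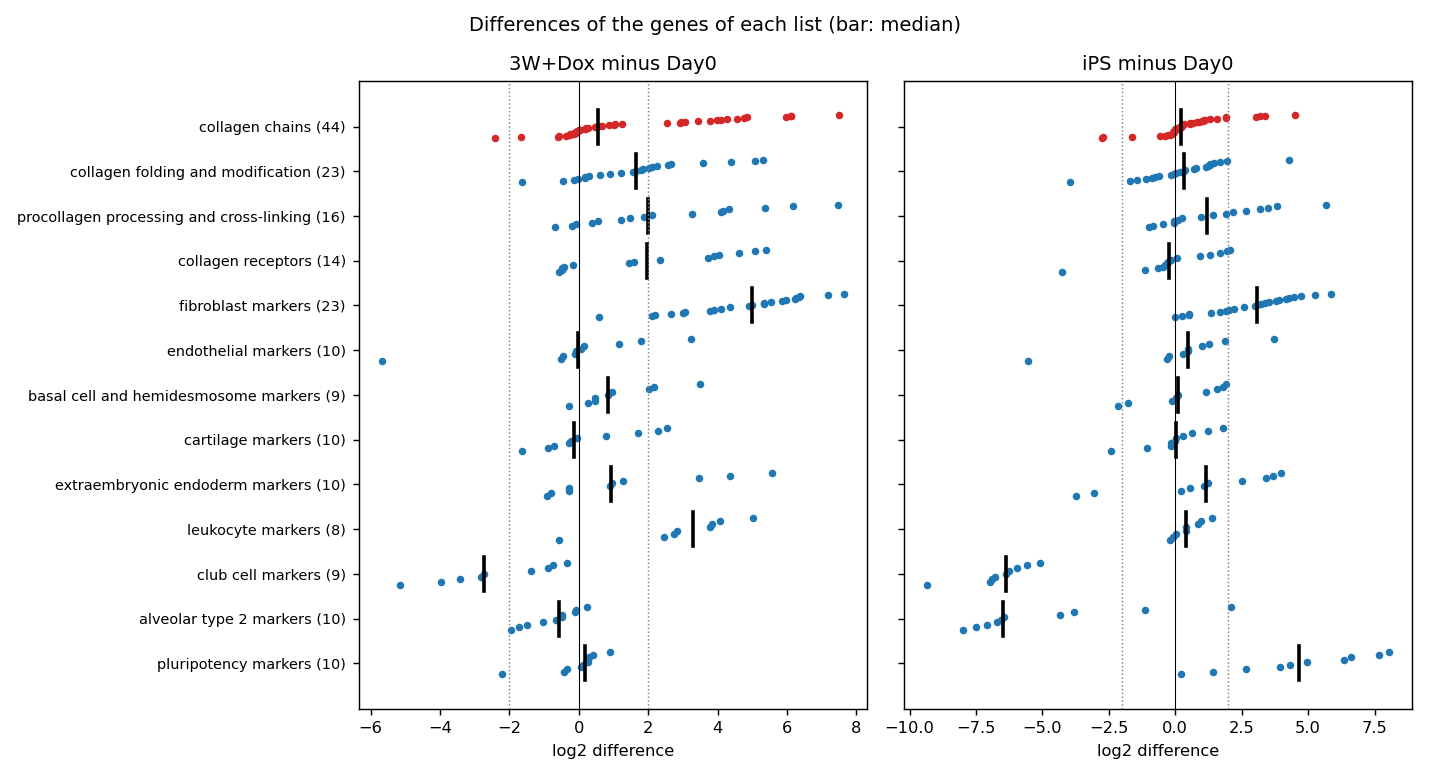
Log2 differences (horizontal axes) of each gene (points) in the collagen chains (red) and in 12 gene lists (blue), for 3W+Dox minus Day0 and for iPS minus Day0; black bars are medians and dotted lines mark 4-fold. At 3W+Dox the fibroblast list has the largest median, 5.00, and the collagen chains spread from -2.41 to 7.49 around a median of 0.55.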

How the data were processed

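Expression was measured on 4 arrays, 1 per population, grouped by the sample titles. The deposited values are log2 signals, made by the authors with RMA (affy package, R 3.0.2, per the submitters' processing notes), which corrects background, quantile normalizes over arrays and summarises each probe set. The values, from 1.70 to 13.85, show the log2 scale, while annotation version and genome build are not stated in the sources used here. Of 25206 probe sets, 2021 had no symbol or several symbols in the platform annotation and were left out. All 44 chains matched the RefSeq gene table by gene ID.

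Differences of log2 signals were taken in 6 comparisons with pandas 2.3.3 and numpy 2.4.6, without further normalization and without a test. The members, gene lists and thresholds were chosen with earlier results of these data known. Chains past the 4-fold rule in any comparison, and their partner chains, are given on every array. For the other lists, the 5 genes furthest apart at 3W+Dox or the first 3 markers are named. Comp, Hapln1, Dppa5a, Foxa2 and the higher basal and endoderm markers were added after their values were seen. The call rule was checked on simulated data, as a check of the computation only. The planted differences were larger than the rule asks for and the noise was assumed, so it gives no error rate for these arrays. Promoter windows and motifs come from RefSeq (GRCm38.p6), with entries used for 35 of the 44 genes. The planned description of protein sequences was not made.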

Additional observations from a re-analysis of the deposited data

How the results depend on the processing

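No difference has a replicate, and the arrays limit precision. No paired analysis was possible because each population has 1 array. Fold thresholds moved the small counts, and the 8-fold threshold also moved larger ones. At 2-fold, lower chains numbered 2 at 3W+Dox against Day0, higher chains 12 in iPS cells against Day0 and 1 against withdrawn cells. At 8-fold, lower chains against Day0 numbered 0 in each of the 3 other populations. In iPS cells the lower chains went from 15 to 7 against 3W+Dox, with 0 higher, and from 13 to 6 against withdrawn cells. With a filter at the 75th percentile, 1 chain was lower in withdrawn cells and 1 in iPS cells against Day0. The share over all named genes was not computed at 8-fold or with this filter. At 2-fold it was 13.1% higher and 12.4% lower in iPS cells against Day0. It was not computed at 2-fold for 3W+Dox against Day0 or for iPS cells against 3W+Dox or withdrawn cells. Without the 11 chains dim on all arrays, the medians were 1.24 at 3W+Dox and 1.80 in withdrawn cells against Day0, and -1.60 and -1.23 in iPS cells against 3W+Dox and withdrawn cells. The mean over chains was 1.62 at 3W+Dox and 1.67 in withdrawn cells against Day0, and -1.14 in iPS cells against 3W+Dox. Centring moved the median of all named genes by at most 0.15 log2 units. Of 342 alternatives for single chains, 340 kept their side of the 4-fold rule and 2 lost the call, both for Col4a1 in iPS cells against 3W+Dox, and 96 of 114 for counts and medians stayed within 1.5-fold. No difference past the rule and no median over the 44 chains changed sign in any of them. Below the rule, the withdrawal differences of Col3a1 and Col6a2 turned to -0.01 and -0.03 with arrays centred on the median.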

Other observations

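Collagen genes that neighbour each other on a chromosome did not always move together. The RefSeq gene order holds 8 pairs of adjacent protein-coding collagen genes. Over the 6 comparisons, the differences of Col4a1 and Col4a2 lay at most 0.15 log2 units apart and those of Col6a2 and Col6a1 at most 0.61. Those of Col9a1 and Col19a1 lay at most 0.39 apart, but both genes were dim on all arrays. For Col3a1 and Col5a2 the gap reached 1.02, yet they moved in the same direction at 3W+Dox against Day0, by 4.76 and 4.10. In iPS cells against 3W+Dox these chains differed by -3.44 each. For Col4a4 and Col4a3 the gap reached 0.95 and for Col4a6 and Col4a5 1.67. Of these, Col4a4 was dim on all arrays and Col4a3 on all but that of withdrawn cells. Within the Col6a6, Col6a5 and Col6a4 cluster, all of it dim, gaps reached 1.08 and 0.998.

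Of 38 promoter entries for 35 collagen genes, 23 held a GC box (GGGCGG), which is 60.5%, against 35.7% of all 32851 promoter entries. The CCAAT box (CCAAT) was in 13 entries, 34.2% against 37.4%, and the TATA box (TATAAA) in 5, 13.2% against 13.6%. The AP-1 site (TGANTCA) was in 1 entry, that of Col6a1, 2.63% against 7.81%. Both strands were searched in windows of 300 bases, and no match overlapped one of another motif in the 5 windows printed. The collagen count left out entries on a chromosome that the count over all entries kept. These shares are a description, and no match says only that the letters are not in the window.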
